A study of Mus musculus with 9 samples.

Results

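The wild-type vehicle cultures of this study are 3 bulk RNA libraries of mouse bone marrow cells grown in interleukin 3, interleukin 6 and stem cell factor (SCF). They were chosen by label, as the 3 libraries named wild type and vehicle among the 9 of the series. The marrow came from the hind limbs of C57BL/6 mice, cells bearing lineage markers were depleted with an enrichment kit, and the remainder was expanded in the cytokines for 5 days. The series set these cultures beside cells of Tet2-/-Flt3ITD mice given vehicle or the SHP2 inhibitor SHP099 for 24 h. The wild-type cells received vehicle, no SHP099 and no engineered allele, and the labels give neither the age and sex of the mice nor a separate exposure time for the wild type. The submitters call the expanded cells myeloid blast-like. The labels tie the mutant cultures to individual mice and do not do so for the wild type, so the spread between these libraries may be technical. All values below are levels and their spread, with no comparison between groups.

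Haematopoietic progenitors carry receptors for these cytokines. Interleukin 3 acts through an alpha chain and a shared beta chain and favours mast cells, basophils and other myeloid cells. Interleukin 6 acts through its receptor and the signalling chain gp130, and SCF acts through the receptor tyrosine kinase KIT, which mast cells keep and most maturing myeloid cells lose. Neutrophil precursors make their granule proteins in order, with the primary granule proteases and myeloperoxidase first and the secondary granule proteins later.

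Total counts were 35285226, 27242168 and 40681117 in WT replicates 1, 2 and 3, so that 3 counts were worth 0.0737 to 0.110 in counts-per-million units (CPM), which are counts scaled by the total of the library. Of 24421 listed symbols, 11432 (46.8%) reached at least 1 CPM in all 3 libraries and count as expressed, and 9797 had at most 3 counts in each library and count as not detected. The other 3192 count as low. Levels of different genes were set side by side in transcripts-per-million units (TPM), counts per kilobase of exon scaled to the same total in every library. The 10 most counted genes held 6.16%, 5.31% and 5.13% of all counts in replicates 1, 2 and 3, and the 100 most counted held 19.0%, 17.8% and 17.7%. A mean of at least 1000 CPM was reached by 76 genes, and the median expressed gene stood at 37.6 CPM. Counts of any pair of libraries differed beyond counting error (chi-square over degrees of freedom 10.5 to 24.4), so no library repeated another.

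The markers given for these cultures were Mpo, the myeloperoxidase of primary granules, S100a9, a calcium-binding protein of neutrophils, Cpa3, a mast cell carboxypeptidase, Pf4, the platelet chemokine CXCL4, and Prg2, the eosinophil major basic protein. RefSeq promoters (GRCm38.p6) were found for 4 of the 5. That of Mpo is not shown, because its RefSeq start lies inside an exon that GENCODE annotates. For the other 3 the 250 bases before the RefSeq start are shown because these genes mark a granulocyte, a mast cell and a megakaryocyte lineage: S100a9 at chr3:90695722-90695971 on the minus strand, Cpa3 at chr3:20242182-20242431 on the minus strand and Pf4 at chr5:90772185-90772434 on the plus strand. Each is written 5′ to 3′ along its gene, and capitals mark matches on either strand to 3 motifs. The GATA factor motif searched was AGATAA. The PU.1 motif searched was GAGGAA. The RUNX motif searched was ACCACA.
S100a9: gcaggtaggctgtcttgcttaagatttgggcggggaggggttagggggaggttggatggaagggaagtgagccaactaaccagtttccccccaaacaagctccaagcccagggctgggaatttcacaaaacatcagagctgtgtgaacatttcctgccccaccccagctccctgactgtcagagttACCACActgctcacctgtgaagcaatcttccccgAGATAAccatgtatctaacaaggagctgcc
Cpa3: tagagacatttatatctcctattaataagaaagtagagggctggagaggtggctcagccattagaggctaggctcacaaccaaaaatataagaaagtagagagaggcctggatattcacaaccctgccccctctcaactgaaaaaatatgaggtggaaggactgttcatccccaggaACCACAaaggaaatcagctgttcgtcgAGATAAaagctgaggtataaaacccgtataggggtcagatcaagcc
Pf4: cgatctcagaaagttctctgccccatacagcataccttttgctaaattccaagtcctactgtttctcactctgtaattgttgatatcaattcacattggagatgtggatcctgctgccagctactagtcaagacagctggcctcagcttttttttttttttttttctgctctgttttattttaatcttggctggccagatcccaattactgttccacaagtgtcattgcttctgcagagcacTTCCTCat

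S100a9 held AGATAA at 30 to 25 and ACCACA at 64 to 59 bases before the start. Cpa3 held the same pair, AGATAA at 46 to 41 and ACCACA at 73 to 68. Pf4 held GAGGAA on the opposite strand at 8 to 3 bases, printed as its reverse complement TTCCTC. No match overlapped another. Among 32851 mouse promoters of the same length, 9.99% held AGATAA, 23.3% GAGGAA and 14.0% ACCACA, and among the 11274 of expressed genes the shares were 6.02%, 22.8% and 11.1%. The matches are a description of these letters and no measure of binding.

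All 5 markers were expressed in every library. S100a9 (chromosome 3, 90692632 to 90695721, GRCm38) stood at 12072, 9798 and 9059.6 CPM in replicates 1, 2 and 3. Mpo (chromosome 11, 87793581 to 87804413) stood at 8503, 8123 and 5913 CPM. Both were highest in replicate 1 and lowest in replicate 3, with highest-to-lowest ratios of 1.33 and 1.44. Cpa3 (chromosome 3, 20215620 to 20242181) stood at 743, 825 and 792 CPM. Pf4 (chromosome 5, 90772435 to 90773383) stood at 717, 711 and 873 CPM. Prg2 (chromosome 2, 84980461 to 84983632) stood at 303, 357 and 317 CPM. Cpa3 and Prg2 were lowest in replicate 1 and highest in replicate 2, while Pf4 was highest in replicate 3. Per length the order was S100a9 at 63120.0 ± 9216 TPM, Mpo at 7012 ± 1275 TPM, Pf4 at 3404 ± 422 TPM, Cpa3 at 1658 ± 94.1 TPM and Prg2 at 1243 ± 112 TPM (SD, n = 3), and no neighbours in this order overlapped. In bulk libraries fewer cells of a type and less RNA per cell cannot be told apart, so none of these levels is a share of cells.

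The most abundant transcripts per length were those of neutrophil genes and of housekeeping. S100a8, which pairs with S100a9 as calprotectin, came second at 26439.9 ± 2879 TPM, and Ngp, a secondary granule protein, came next at 13809 ± 648 TPM. Mir6236 followed at 13517 ± 404 TPM, a value set by its annotated length of 123 bases, since its level was 507, 519.9 and 532 CPM. The serine proteases of primary granules were also among the 20 highest, with Elane (neutrophil elastase) at 6596 ± 1011 TPM, Prtn3 (proteinase 3) at 5503 ± 409 TPM and Ctsg (cathepsin G) at 4415 ± 178 TPM. So were Chil3, a chitinase-like secreted protein, at 5847 ± 2245 TPM and Lyz2, a lysozyme, at 5794 ± 639 TPM. Lyz2 has a near-identical copy, Lyz1, and how their shared reads were assigned is not given in the sources used here. Of the 20 genes, 9 belong to the primary granule and late neutrophil lists.

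Most of the remaining highly expressed genes per length serve all cells. Ftl1, the ferritin light chain, stood at 8482 ± 305 TPM, Rplp1, a ribosomal protein, at 8038 ± 650.3 TPM, Tmsb4x, thymosin beta 4, at 7672 ± 211 TPM, Actb, beta actin, at 7006 ± 649 TPM and Eef1a1, a translation elongation factor, at 6075 ± 279 TPM. Arhgdib, found mainly in blood cells, and Hsp90ab1, Rps15, Calr and Gpx1 completed the 20, between 3520.1 and 3844 TPM. By counts alone the order differed, because a long transcript gathers more reads: Ltf (lactoferrin), Thbs1 (thrombospondin 1), Eef2, Flna, Hsp90b1 and Hspa5 were then among the first 20. Rn45s, the ribosomal RNA precursor, was also there, at 7049, 4651 and 3774 CPM. It was highest in replicate 1, and no length was matched to it. The plot of levels per length shows S100a9 apart from the others in all 3 libraries.

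**Figure D1:**
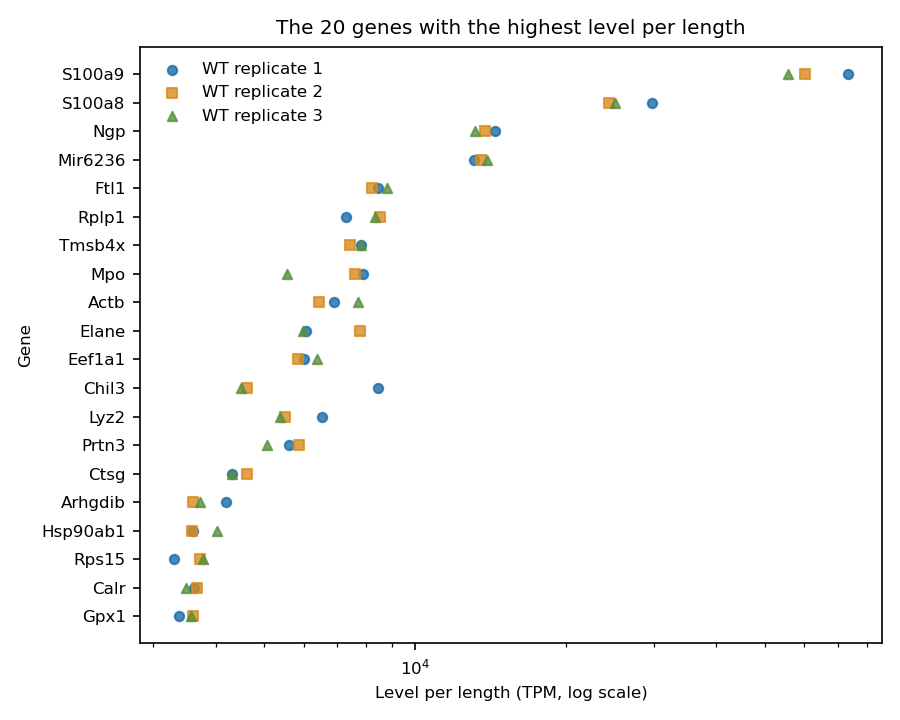
The 20 genes with the highest mean TPM, 1 point per library, on a log scale. S100a9 lies furthest to the right in all 3 libraries, and Chil3 has its replicate 1 point well above the other libraries.

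Cell type lists gave a wide picture of the cultures. Of all listed symbols 46.8% were expressed, and counts of expressed members stand against that share. The lists were chosen with earlier results of these data known, so such counts are no test. Of all expressed genes 25.1% were highest in replicate 1, 33.2% in replicate 2 and 41.8% in replicate 3, and counts of members by their highest library stand against these shares. All 10 genes of the primary granule and promyelocyte list were expressed, with a summed level of 17774, 17794 and 14289 CPM. Beside the proteases it held Ms4a3, a marker of committed granulocyte and monocyte precursors, at 1070.2, 943 and 932 CPM. Serpinb1a, an inhibitor of the granule proteases, stood at 860.3, 774 and 702 CPM. No member of this list was highest in replicate 3, and Fcnb, a ficolin, varied most, at 171, 149.6 and 106 CPM.

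All 17 genes of the secondary granule and late neutrophil list that the table holds were expressed, summing to 37935, 31466 and 29629 CPM, or 3.79%, 3.15% and 2.96% of all counts. Ltf stood at 3503, 3035 and 2812 CPM, and Lcn2, the siderophore-binding lipocalin, at 1526, 1243 and 1070.2 CPM. Of the 17, 10 were highest in replicate 1, 7 in replicate 2 and none in replicate 3. The 2 most variable moved in opposite ways. Chil3 was at 4335 CPM in replicate 1 against 2351 and 2279 CPM in replicates 2 and 3. Camp, the cathelicidin, was at 400.5 CPM in replicate 1 against 842 and 718 CPM. Replicate 1 was thus the high library for Chil3 and the low one for Camp, although both belong to the late granule programme as listed. Per length the list summed to 123937 ± 15164 TPM, against 27934 ± 2690.3 TPM for the primary granule list. Most of the former sum came from S100a9, at 63120 ± 9216 TPM, and S100a8, at 26440 ± 2879 TPM. These sums therefore give no ratio of secondary to primary granule transcripts.

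All 22 mast cell and basophil genes of the list were expressed, 6 of them with a mean under 10 CPM. At a threshold of 5 CPM in every library, 17 were expressed. The list summed to 2963, 3498 and 3317 CPM. Mcpt8, the basophil protease, stood at 602, 712 and 715 CPM, and Prss34, another basophil protease, at 363, 441 and 389 CPM. Both were lowest in replicate 1. Hdc, which makes histamine, stood at 203, 226 and 240.1 CPM, and Ms4a2, the beta chain of the high-affinity IgE receptor, at 99.3, 133 and 113 CPM. Mcpt1, a mast cell protease usually found in mucosa, was the most variable member, at 5.53, 18.0 and 25.5 CPM. The Mcpt genes resemble each other, and a split of reads among them is uncertain. Per length Mcpt8 led at 2168 ± 217 TPM, with Cpa3 next.

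Eosinophil granule genes were expressed, and of the receptors listed Siglecf was expressed while Il5ra and Ccr3 were low. Epx, eosinophil peroxidase, stood at 199, 233 and 229 CPM, and Prg3, a relative of Prg2, at 28.1, 32.1 and 31.0 CPM. Siglecf, a lectin of the eosinophil surface, stood at 15.1, 12.9 and 11.6 CPM. Il5ra, the interleukin 5 receptor, was low at 1.22, 0.734 and 1.16 CPM, and Ccr3, the eotaxin receptor, had 5, 5 and 10 counts. In all 7 of 10 members were expressed and 3 low, Il5ra, Ccr3 and Ear2. The Ear genes are near-identical copies, so their single levels are uncertain, and Ear6, at 3.29, 4.55 and 8.28 CPM, was the most variable expressed member.

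Megakaryocyte and platelet genes were uniformly expressed, 17 of 17, with a summed level of 4983, 4827 and 6011 CPM. Itgb3, integrin beta 3, stood at 1036, 979 and 1261 CPM. Itga2b, its platelet partner integrin alpha IIb, stood at 737, 729 and 965 CPM. Ppbp, a platelet chemokine, stood at 856, 812 and 1041 CPM. Replicate 3 was the high library for these 3 genes and for 14 of the 17 members. Vwf, the von Willebrand factor, stood at 378, 416 and 516 CPM, and Gp5, a subunit of its receptor, at 137, 139 and 179 CPM. Per length Pf4 led the list at 3404 ± 422 TPM, with Ppbp next at 2667 ± 369 TPM. The list summed to 8875 ± 1080.3 TPM, beside 6214 ± 487 TPM for the mast cell and basophil list. Most of the former sum came from Pf4 and Ppbp, and most of the latter from Mcpt8 and Cpa3. These sums therefore give no ratio of megakaryocyte to mast cell and basophil transcripts.

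Erythroid genes were expressed at lower levels and spread more than any other lineage list of at least 10 expressed genes. Of 17 members in the table, 12 were expressed, and all 12 were highest in replicate 3. Klf1, the erythroid transcription factor, stood at 23.6, 29.0 and 42.9 CPM. Epor, the erythropoietin receptor, stood at 20.2, 24.7 and 33.0 CPM. Replicate 3 was the high library for both, while Tfrc, the transferrin receptor that dividing cells in general carry, varied little, at 572, 559 and 594 CPM. Slc4a1, the red cell anion exchanger, stood at 11.8, 4.70 and 19.3 CPM, lowest in replicate 2. The 4 haemoglobin genes of the list, Hba-a1, Hba-a2, Hbb-bs and Hbb-bt, had 0 counts in all 3 libraries, which allows up to 0.0850, 0.110 and 0.0737 CPM for each in replicates 1, 2 and 3. Hba-a1 and Hba-a2 are near-identical copies, as are Hbb-bs and Hbb-bt. The limit given covers counting error and not reads dropped because they match several genes, so the level of these genes is uncertain.

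Monocyte and macrophage genes were expressed at moderate levels, 22 of 25. Ly6c2, a surface marker of inflammatory monocytes that myeloid precursors also carry, stood at 829.7, 806 and 687 CPM. Ccr2, the monocyte chemokine receptor, stood at 139, 99.7 and 115 CPM. Csf1r, the receptor for macrophage colony-stimulating factor, stood at 81.8, 68.2 and 60.8 CPM. Replicate 1 was highest for these and for 15 of the 22 expressed members. Mrc1, the macrophage mannose receptor, showed this most, with 53.5 CPM in replicate 1 against 22.1 and 28.1 CPM. Lyz1 was instead highest in replicate 3, at 255, 208 and 354 CPM, and shares sequence with Lyz2. Cd5l, a protein of tissue macrophages, was not detected, and Ms4a7 and Marco were low. The list summed to 2327 ± 162 TPM.

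Genes of stem and progenitor cells were partly present, 16 of 20 expressed. Cd34 stood at 38.9, 50.4 and 49.2 CPM and Slamf1 (CD150) at 37.6, 34.2 and 39.1 CPM. Ly6a, which encodes Sca-1, stood at 9.04, 20.9 and 15.3 CPM, lowest in replicate 1. None of the 16 was highest in replicate 1. Flt3, the receptor of lymphoid and dendritic progenitors, had the lowest level per length of those expressed, and stood at 1.56, 1.73 and 2.56 CPM. Cd27, Procr, Mecom and Fgd5 were low. The list summed to 915 ± 51.0 TPM, below the granule, megakaryocyte and mast cell lists. Such sums depend on a few abundant members of each list. How many cells were immature, as the label of blast-like cells implies, was not measured.

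Of 17 dendritic cell genes 13 were expressed, 3 low and 1 not detected, and the list summed to 477 ± 63.3 TPM. Cd74, the invariant chain of MHC class II, led per length at 222 ± 28.4 TPM and stood at 100.3, 122 and 127 CPM. H2-Ab1, a class II beta chain, stood at 24.4, 36.3 and 36.5 CPM. Both were lowest in replicate 1, as was Ccr7, a receptor of mature dendritic cells, at 1.93, 5.21 and 5.60 CPM. Siglech, a marker of plasmacytoid cells, was not detected.

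Lymphoid and non-haematopoietic markers were mostly low or not detected. Of 14 B cell genes Cd79b alone was expressed, at 7.03, 7.34 and 6.37 CPM, while Ms4a1, Pax5, Ebf1, Rag1, Rag2 and Vpreb3 were not detected. Of 16 T cell and NK cell genes Il7r and Lck were expressed, at 4.49 ± 0.684 and 1.55 ± 0.0922 CPM, and Cd3e, Cd3g, Cd4, Cd8a, Cd8b1, Bcl11b, Gzma, Klrb1c and Ncr1 were not detected. The 18 genes of other tissues, from albumin to rhodopsin, summed to 0.425, 0.844 and 0.713 CPM, with 15 not detected. In the stromal and endothelial list 7 of 15 were expressed. Pecam1, which platelets and leukocytes also carry, gave most of its level, at 211, 214 and 213 CPM. Col1a1, a collagen of fibroblasts and osteoblasts, stood at 17.2 CPM in replicate 1 against 5.69 and 4.99 CPM, and Col1a2 at 12.1 against 3.45 and 5.51 CPM. Col1a1 and Col1a2, the most variable members, were thus highest in replicate 1, while Pecam1 was highest in replicate 2 and Pdgfrb and Tek in replicate 3. Col3a1 was low, and Lepr, Bglap and Adipoq were not detected. The part of stromal cells in the spread of other genes was not tested.

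**Figure D2:**
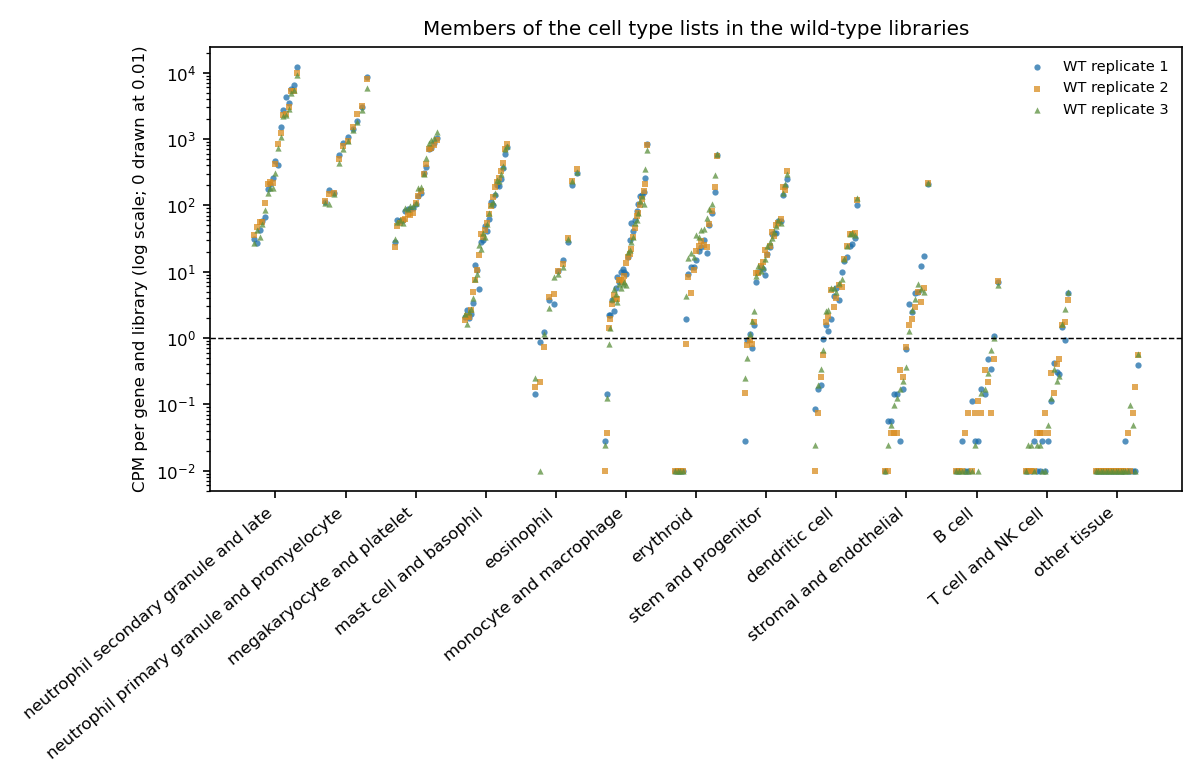
CPM of each member of the cell type lists in each library, sorted by mean level within a list, on a log scale with values of 0 drawn at 0.01 and a dashed line at 1 CPM. The granule and megakaryocyte lists lie wholly above the line, whereas nearly all B cell, T cell and other tissue members lie below it.

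Receptors for all 3 added cytokines were expressed. Csf2rb, the beta chain shared by the receptors for interleukin 3, interleukin 5 and GM-CSF, stood at 959, 1030.0 and 1103 CPM. Csf2rb2, its mouse copy that serves interleukin 3 alone, stood at 443, 508 and 584 CPM. Replicate 3 was highest for both, and because the genes are near-identical the split of reads between them is uncertain. Il3ra, the alpha chain, stood at 22.9, 27.8 and 26.2 CPM. Kit stood at 143, 187 and 155 CPM. Il6ra stood at 37.9, 31.3 and 30.9 CPM and Il6st, which encodes gp130, at 45.6, 32.7 and 35.2 CPM. Kit was highest in replicate 2, and both interleukin 6 receptor chains were highest in replicate 1. Per length the order was Csf2rb at 453 ± 34.2 TPM, Csf2rb2 at 345 ± 49.6 TPM, Kit at 58.1 ± 8.21 TPM, Il3ra at 27.6 ± 2.79 TPM, Il6ra at 12.3 ± 1.37 TPM and Il6st at 10.9 ± 1.90 TPM. The last pair overlapped between libraries, and no other neighbours in this order did.

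The cytokines themselves were named outside the rule for named genes, because they were in the medium. Il6 was expressed by the cells, at 52.7, 42.6 and 65.9 CPM. Kitl, which encodes SCF, had 8 counts in each library, and Il3 had 0 counts. Among the 45 secreted factors 28 were expressed. Ccl6, a myeloid chemokine, stood at 978, 1057 and 1195 CPM, Tgfb1 at 530.0, 548 and 536 CPM, and Osm, oncostatin M, at 146, 155 and 169 CPM. Ccl6 and Osm were highest in replicate 3, as were 19 of the 28, against 41.8% of all expressed genes. Ccl24, an eotaxin, was the most variable, with 28.7 CPM in replicate 1 against 11.5 and 11.3 CPM.

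Of 37 other growth factor and cytokine receptors 33 were expressed. Per length Ifngr1, the interferon gamma receptor, led at 247 ± 16.2 TPM, followed by Tnfrsf1a, a TNF receptor, at 201 ± 19.3 TPM. Csf2ra, the GM-CSF receptor alpha chain, stood at 179 ± 11.2 TPM and Csf3r, the G-CSF receptor, at 172 ± 24.4 TPM. The libraries of the last 3 overlapped. Il1rl1, the interleukin 33 receptor of mast cells and basophils, stood at 198, 255 and 233 CPM, lowest in replicate 1. Egfr and Osmr were not detected, and Il5ra and Il2rb were low. Flt3, whose mutated form the other cultures of the series carry, had the mean level per length of 1.01 ± 0.282 TPM here, below Kit and Csf1r.

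Receptors of migration and of innate sensing were broadly expressed. Of 18 chemokine and migration receptors 14 were expressed, with Cxcr4, which holds cells in the marrow, at 205, 185 and 172 CPM and Ltb4r1, the leukotriene B4 receptor, at 128, 128 and 120.5 CPM. Of 27 Fc, Toll-like and pattern receptors 24 were expressed. Fcer1g, the signalling chain of several Fc receptors, led per length at 808 ± 59.4 TPM, and Fcgr3, a low-affinity IgG receptor, followed at 493 ± 25.6 TPM. Of the 24, 18 were highest in replicate 1, among them Clec12a, an inhibitory lectin, at 467, 413 and 371 CPM. Of 18 integrins 15 were expressed, and Itgam, the CD11b chain, stood at 721, 585 and 535 CPM. Itgb7, an integrin of mast cell precursors and lymphocytes, went the other way, at 77.8, 104 and 116 CPM.

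The transcription factors combined those of several myeloid lineages. Of 91 haematopoietic factors 81 were expressed, and Ebf1, Pax5, Bcl11b and Lef1, which act in lymphocytes, were not detected. Spi1, which encodes PU.1, stood at 354, 349 and 297 CPM. Cebpa, needed for granulocyte precursors, stood at 267, 299.5 and 254 CPM. Cebpe, which acts at the secondary granule stage, stood at 183, 182 and 159.9 CPM. These 3 factors of granulocytes were lowest in replicate 3. Gata2, of mast cells and progenitors, stood at 245, 330.1 and 298 CPM. Gata1, of red cells, megakaryocytes and mast cells, stood at 76.2, 83.0 and 104 CPM. Gata2 was highest in replicate 2 and Gata1 in replicate 3.

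Per length the stress and secretory factors Atf4, at 777 ± 7.80 TPM, and Xbp1, at 493 ± 27.4 TPM, led the list. Cebpe followed at 451 ± 32.0 TPM and Spi1 at 396 ± 35.8 TPM, and their libraries overlapped. Lyl1, Cebpa, Nfe2 and Cebpb lay between 316 and 333 TPM, within their spread of each other. Myc stood at 275 ± 16.4 TPM, Gfi1, a repressor needed by neutrophils, at 264 ± 19.5 TPM, Lmo2 at 253 ± 17.8 TPM and Myb at 134 ± 8.95 TPM. Factors of monocytes and dendritic cells were low in this order: Klf4 stood at 13.3 ± 2.38 TPM and Irf8 at 8.05 ± 0.788 TPM. Mitf, a mast cell factor, stood at 5.26 ± 0.458 TPM, far under Gata2 at 173 ± 26.1 TPM. Of the 11 HOXA genes Hoxa9 alone was expressed, at 6.94, 9.69 and 8.58 CPM, with 7 low and Hoxa2, Hoxa11 and Hoxa13 not detected. The summed level of the 91 factors was 8959, 9215 and 8924 CPM, an SD of 159 CPM.

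**Figure D3:**
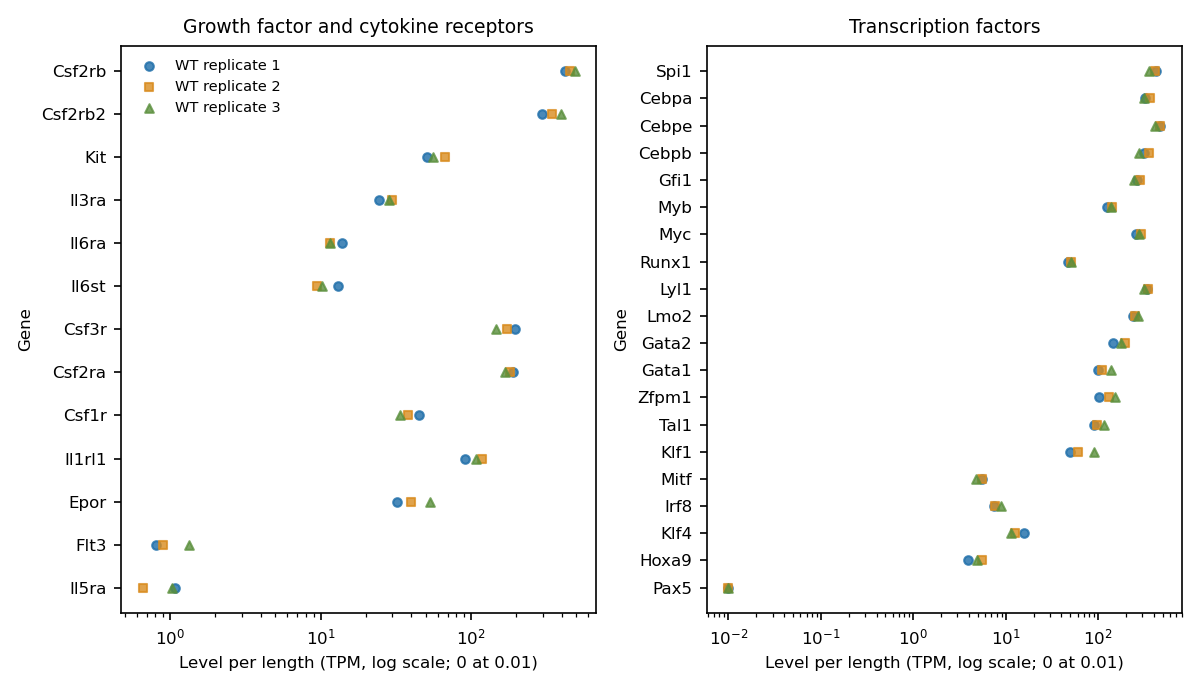
TPM of selected receptors and transcription factors in each library on a log scale, with 0 drawn at 0.01. Csf2rb and Csf2rb2 lie above the other receptors, Flt3 and Il5ra lie near 1 TPM, and Pax5 is at 0 in all 3 libraries.

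The pathways that the other groups of the series disturb were expressed in the wild type. Of 37 genes around SHP2, the phosphatase that links receptors to RAS and ERK, 36 were expressed and Rasgrp1 was low. Ptpn11, which encodes SHP2, stood at 344, 342 and 387 CPM. Ptpn6, which encodes its blood cell relative SHP1, stood at 429, 377 and 336 CPM. Ptpn11 was highest in replicate 3 and Ptpn6 in replicate 1, and per length Ptpn6, at 434 ± 50.5 TPM, exceeded Ptpn11, at 153 ± 11.5 TPM, in every library. Of the RAS genes, Nras stood at 77.1 ± 0.473 TPM and Hras at 45.5 ± 3.64 TPM. The kinase gene Mapk3 stood at 267 ± 20.9 TPM.

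All 11 genes of the JAK kinases and their feedback were expressed, with Pim1, a kinase induced by cytokines, at 489.8, 489 and 457 CPM and Jak2, which serves the interleukin 3 receptor, at 209, 207 and 212 CPM. Of 11 genes of DNA methylation, its removal and the IDH enzymes 10 were expressed. Tet3 stood at 121, 125 and 122 CPM, Tet2 at 34.5, 32.4 and 33.9 CPM and Tet1 at 5.47, 4.81 and 5.75 CPM. Dnmt1, the maintenance methyltransferase, stood at 564, 576 and 559 CPM. These levels differed little between libraries, with a median coefficient of variation (CV, SD over mean) of 2.81% over the 10. Tdg was low at 1, 5 and 1 counts, and shares sequence with copies elsewhere in the genome, so its level is uncertain.

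Division genes were expressed throughout, 28 of 28 for entry into S phase and replication and 23 of 23 for mitosis. Mki67, which encodes the proliferation antigen Ki-67, stood at 1128, 1079 and 1081 CPM. Top2a, a topoisomerase of dividing cells, stood at 938, 951 and 917 CPM. Rrm2, a subunit of ribonucleotide reductase, stood at 458, 462 and 476 CPM. The highest and lowest library had a ratio of 1.04 for each, and Ccnd1 (cyclin D1), at 3.26, 4.40 and 5.60 CPM, varied most. Ccnd3 led the D cyclins per length at 159.6 ± 6.15 TPM, above Ccnd2 at 76.6 ± 5.03 TPM and Ccnd1 at 3.01 ± 0.813 TPM. Of the replication genes 18 of 28 were highest in replicate 3, where 41.8% of all expressed genes were highest. Of the mitotic genes 11 of 23 were highest in replicate 1, against 25.1% of all expressed genes, and 2 in replicate 3.

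Across all expressed genes the libraries were close. The median CV was 5.62%, with quartiles of 3.32% and 9.54%, and the common biological coefficient of variation (the spread beyond counting error, from edgeR) was 8.24%. Of the 11432 expressed genes, 130 (1.14%) differed by over 2-fold between the highest and lowest library, and 93 of these had a mean under 10 CPM. Leaving out replicate 1 brought the 130 to 38, and leaving out replicate 3 brought it to 74. The median CV was 13.9% for genes at 1 to 3 CPM, where counting error was calculated at 12.7%. At 100 to 1000 CPM the median CV was 3.98%, against a calculated 1.34%. For the 76 genes above 1000 CPM it was 4.77%, against a calculated 0.455%. A CV over 3 libraries falls below its true value more often than above it. The gap to the calculated counting error is therefore understated at low levels. The spread of abundant genes, such as Mpo with a CV of 18.6% and S100a9 with 15.2%, was many times their counting error.

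**Figure D4:**
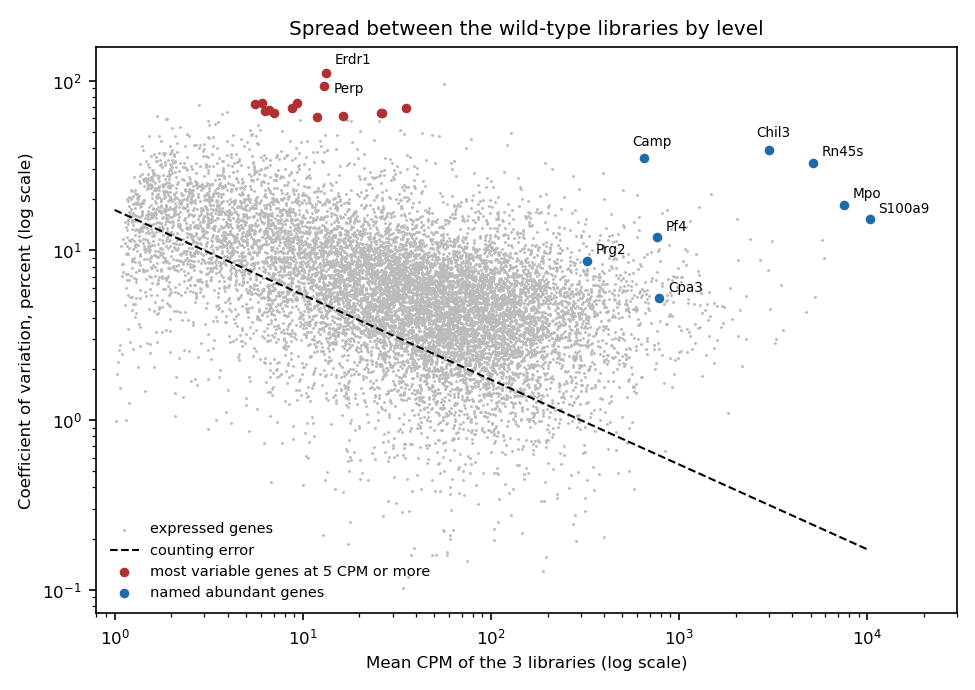
CV of each expressed gene against its mean CPM on log axes, with the counting error as a dashed line. Most genes above 100 CPM lie over the line, and Chil3, Rn45s, Camp, Mpo and S100a9 stand above genes of like level.

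Levels of several lineage lists shifted between the libraries. Median log2 deviations of all expressed genes from the 3-library mean were -0.03, 0.01 and 0.02. Scaling each library to its total keeps these medians near 0, so they are no measure of how far a short list can move. Erythroid genes deviated by -0.25, -0.17 and 0.47 in replicates 1, 2 and 3, and their median CV was 30.7%. Monocyte and macrophage genes deviated by 0.22, -0.10 and -0.14, with a median CV of 18.9%. Replicate 3 was thus the high library for erythroid genes and replicate 1 for macrophage genes. Late neutrophil genes deviated by 0.08, 0.02 and -0.17, megakaryocyte genes by 0.01, -0.14 and 0.19, and dendritic cell genes by -0.29, 0.13 and 0.20. Medians of haematopoietic transcription factors were 0.00, 0.01 and -0.01, and those of mitotic genes 0.02, 0.01 and -0.03. Rn45s took 0.705%, 0.465% and 0.377% of counts. Replicate 1, the library with most ribosomal precursor, also had the highest summed CPM of several lists. Among them were the monocyte and macrophage, the late neutrophil and the Fc and pattern receptor lists. The part of Rn45s in these differences was not tested.

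**Figure D5:**
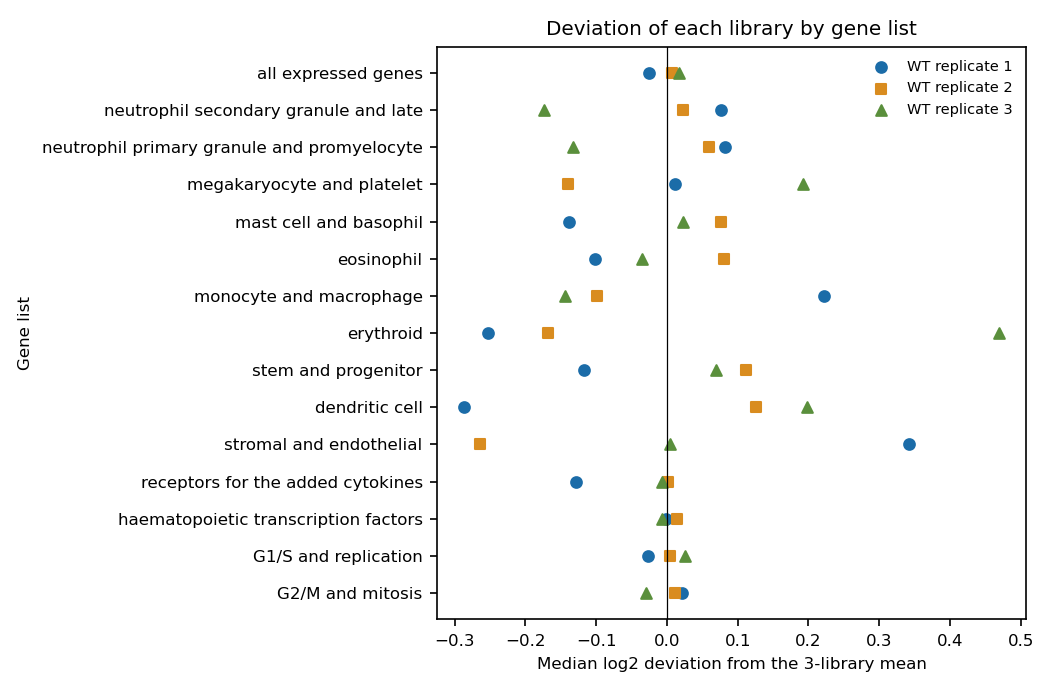
Median log2 deviation of each library from the 3-library mean, over the expressed members of each list. The erythroid list spans -0.25 to 0.47 and the dendritic list -0.29 to 0.20, whereas transcription factors and division genes stay near 0.

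The most variable genes at 5 CPM or more, predicted gene models and clones left out, were of mixed kinds. Ccnb1ip1, a ubiquitin ligase of meiosis, ranged furthest, with 1, 115 and 590 counts in replicates 1, 2 and 3. It counts as low, since replicate 1 had 0.0283 CPM. Its span on chromosome 14 (50789248 to 50807732) overlaps that of Rpph1 (50807449 to 50807767), so the split of reads between them is uncertain. Erdr1 stood at 2.58, 7.16 and 30.3 CPM, and Perp, a p53 target of cell adhesion, at 6.57, 5.47 and 26.7 CPM. All 3 were highest in replicate 3, as were Slc4a1, Mcpt1, Muc6, Hmga2-ps1 and Igfbp5. Igfbp5, which binds insulin-like growth factors, stood at 7.17 CPM in replicate 1 against 31.5 and 39.4 CPM. Col1a1, Col1a2, Saa3 and Rpph1 were highest in replicate 1, and Saa3, a serum amyloid protein that macrophages make, stood at 11.1, 4.07 and 3.69 CPM. Pttg1, the securin of mitosis, was high in replicate 2 alone, at 16.2, 46.3 and 16.9 CPM, though the mitotic list varied little. Grap, an adaptor of RAS signalling, was also highest there, at 5.50, 10.9 and 1.89 CPM.

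At the other end, the least variable of the 2531 genes with a mean of at least 100 CPM included Ctcf, the chromatin insulator protein, at 189.7, 189.8 and 190.1 CPM, Dek, Nucks1, Birc5 and Nras. Their CVs, 0.129% for Ctcf and 0.274% for Nras, were below counting error, as the lowest of so many values can be by chance, and are no measure of tight control. Genes of the sex chromosomes gave the same reading in each library. Ddx3y, on the Y chromosome, stood at 43.5, 52.4 and 49.1 CPM, Eif2s3y at 53.8, 45.1 and 47.2 CPM, and Kdm5d and Uty were expressed too. Xist, which silences an X chromosome in female cells, had 0, 3 and 2 counts. All 3 libraries thus carried Y-linked transcripts with no Xist detected.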

How the data were processed

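Per the labels' protocols, a TruSeq stranded mRNA kit was used on total RNA. FastQC, STAR, Subread, featureCounts and the build mm10 appear in the submitters' processing notes with no roles or versions. The annotation, the strand setting and the handling of reads that match several genes are not given in these sources. The authors deposited 1 table of raw counts, whole numbers per gene symbol, in which the 3 wild-type columns were used and the other 6 were not.

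CPM and TPM were computed from these counts in Python 3.11.15. Lengths are GENCODE M21 exon unions on GRCm38, matched for 23376 of 24421 symbols, and 2.64% of counts had none and stay out of TPM. Spread was estimated in R 4.3.3 with edgeR 4.0.16 (intercept only, genes of at least 1 CPM in every library, total counts as library sizes), and DESeq2 1.42.0, TMM and RLE were alternatives. Errors are SD over 3 libraries and cover no other source. In 5 simulations of 11432 genes a spread of 8.24% was estimated at 8.26% on average, and 77.9% of 200 genes made more variable were recovered by CV. The simulated counts followed the model that the estimate assumes, and the 200 genes were given a spread far above the rest. The simulations thus check the calculation and do not show how reliable the CV ranking of the real genes is.

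Members and the 29 gene lists were chosen with earlier results of these data known. Named genes are the 20 highest by CPM and by TPM, the 5 markers, up to 8 members per list by mean CPM and those not detected, the 2 most variable per lineage list, the 15 most and 10 least variable genes, and any receptor, transcription factor or SHP2 gene. Named outside this rule, after their values were seen, are members given as low, the D cyclins, Tet1, Ccl24, Il6 and Kitl. Other cultures of the series were not compared here. Some genes that this rule takes are not reported here.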

Additional observations from a re-analysis of the deposited data

How the results depend on the processing

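The number of expressed genes was 11427 with TMM or RLE scaling, 12099 at 0.5 CPM and 9775 at 5 CPM, and 11476 to 11528 with 1 library left out. The mean CPM of the 5 markers and the summed CPM of the 13 cell type lists moved by less than 1 SD under TMM, RLE and the total without non-polyadenylated RNA genes. Leaving out 1 of 3 libraries cannot move such a mean by 1 SD, so it shows no stability here. The median CV fell to 4.69% for genes at 10 CPM or more in every library, and was 4.26% to 5.33% with 1 library left out. The number of genes differing over 2-fold was 38 to 89 with 1 library left out (38 without replicate 1, 74 without replicate 3), in part because fewer libraries give a smaller range. The biological coefficient of variation was 6.99% to 9.84% with 1 library left out, highest without replicate 2. It was 8.12% to 8.68% under the other edgeR settings. The DESeq2 value, 8.02%, came from the median over genes of a fitted dispersion. It is therefore another measure than the common value of edgeR. The cause of these shifts was not tested. At 5 CPM 7 dendritic cell genes, 1 stromal gene and 0 T cell and NK cell genes were expressed, at 0.5 CPM 3 HOXA genes were, and without replicate 2 so were 2 B cell genes. With the longest transcript as length, 19 of the 20 genes highest in TPM were shared. No paired analysis was possible because 1 group alone was used.

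Depth limits genes near 1 CPM, where counting error makes up most of the spread. With 3 libraries, and no mice named for them, the SD of a single gene is itself imprecise, and an RNA level gives no share of cells.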
